A study of Mus musculus with 9 samples.

Results

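The genes described here handle bile acids in the intestine or belong to the farnesoid X receptor (FXR) pathway. They are 9 genes, chosen by name and matched to the Ensembl identifiers of the mouse expression tables, which hold 54838 genes. The choice was made with earlier results of these data known. Shares of the members set beside shares of all genes are therefore descriptions and not tests of the group. The 9 are *Nr1h4*, *Nr0b2*, *Fgf15*, *Slc10a2*, *Fabp6*, *Slc51a*, *Slc51b*, *Abcc2* and *Abcb1a*. All 9 were found, and 8 of them passed the filter on low values (at least 1 FPKM in at least 2 of the 7 libraries). *Nr0b2* passed through 2 libraries, both labelled 4-OHT, and *Fgf15* did not reach 1 FPKM in any library, so *Fgf15* has values but no test.

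Bile acids that reach the distal small intestine are taken up from the lumen by ASBT, the product of *Slc10a2*. Inside the enterocyte they are bound by the ileal bile acid binding protein (*Fabp6*), and they leave across the basolateral membrane through OSTα-OSTβ, a heterodimer encoded by *Slc51a* and *Slc51b*. In the cell they activate FXR (*Nr1h4*), a nuclear receptor that binds DNA mostly as a heterodimer with RXR. FXR is known to induce *Fabp6*, both *Slc51* genes, the small heterodimer partner *Nr0b2* and *Fgf15*, a hormone that signals to the liver to lower bile acid synthesis. *Abcc2* encodes MRP2, an apical pump for conjugates of bile acids, drugs and glutathione. *Abcb1a* encodes an apical P-glycoprotein, which exports many lipophilic drugs.

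Small intestinal organoids were grown from crypts of C57BL/6 *Vil-CreERT2*;*Mettl3* fl/fl mice. In this model a villin promoter drives a tamoxifen-dependent Cre recombinase in the epithelium, and all groups, controls included, carry both alleles. Ethanol (EtOH, the vehicle) or 4-hydroxytamoxifen (4-OHT, 500 nM) was given for 2 days, with dimethyl sulfoxide (DMSO, the second vehicle) or necrostatin-1 (Nec-1, an inhibitor of the kinase RIPK1) for 5 days. RNA-seq libraries number 2 for EtOH DMSO, 2 for EtOH Nec-1, 2 for 4-OHT DMSO and 1 for 4-OHT Nec-1, and the study's mice were male and 2 to 4 months old. How many mice gave organoids for these libraries was not given in the sources used here. Because nothing says that libraries of a group came from separate cultures or animals, p-values measure only the spread between these libraries, which may be technical.

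The deposited values are FPKM, fragments scaled to transcript length and to the mapped fragments of the library, so levels can be set side by side between genes. The sum over all genes ranged from 450207 to 498712, and each library had 11559 to 12038 genes at 1 FPKM or more. Read counts were not used here, so the depth behind single values is unknown. *Mettl3*, the targeted gene, went against the labels: the EtOH libraries held 2.70 and 2.71 FPKM with DMSO and 2.41 and 2.47 with Nec-1, and those labelled 4-OHT held 3.72 and 4.14 with DMSO and 3.36 with Nec-1. Gene-level values do not show whether the floxed part was excised. Directions between EtOH and 4-OHT are therefore given by label. Epithelial markers were present, with *Vil1* between 102 and 159 FPKM. Of 7 immune markers, *Ptprc*, *Cd3e*, *Cd3g*, *Cd79a* and *Csf1r* were at no more than 0.280 FPKM in any library, while *Cd68* reached 7.72 and *Itgam* 2.45. Of 6 fibroblast markers *Vim* reached 1.08 FPKM and the others no more than 0.0878.

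In the control organoids (EtOH DMSO), the efflux pumps and the receptor were the most abundant of the 9 genes. *Abcc2* stood at 26.6 and 33.8 FPKM and *Abcb1a* at 24.2 and 30.0, and these ranges overlapped. *Nr1h4* followed at 16.3 and 16.1 FPKM, apart from its neighbours in the order. A middle tier held *Slc51b* (5.93 and 6.79 FPKM), *Slc51a* (5.99 and 5.58) and *Fabp6* (6.72 and 3.98), whose ranges overlapped. The lowest tier held *Slc10a2* (0.737 and 1.35 FPKM), *Nr0b2* (0.527 and 0.853) and *Fgf15* (0.459 and 0.879), again with overlapping ranges. The uptake transporter and the FXR-induced hormone of the ileum were thus near the limit of 1 FPKM, while the receptor itself was well above it. Markers of both ends of the small intestine were present in the same libraries. Of 8 proximal markers 7 were above 1 FPKM, among them *Gata4* at 33.4 and 34.2, and lactase (*Lct*) was at 0.164 and 0.383. Of 4 distal markers, *Amn* was at 12.3 and 12.9 FPKM, *Nts* at 11.5 and 9.11 and *Pyy* at 8.11 and 5.18, and *Cubn*, the partner of *Amn* in the cobalamin receptor, at 0.0800 and 0.109.

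**Figure D1:**
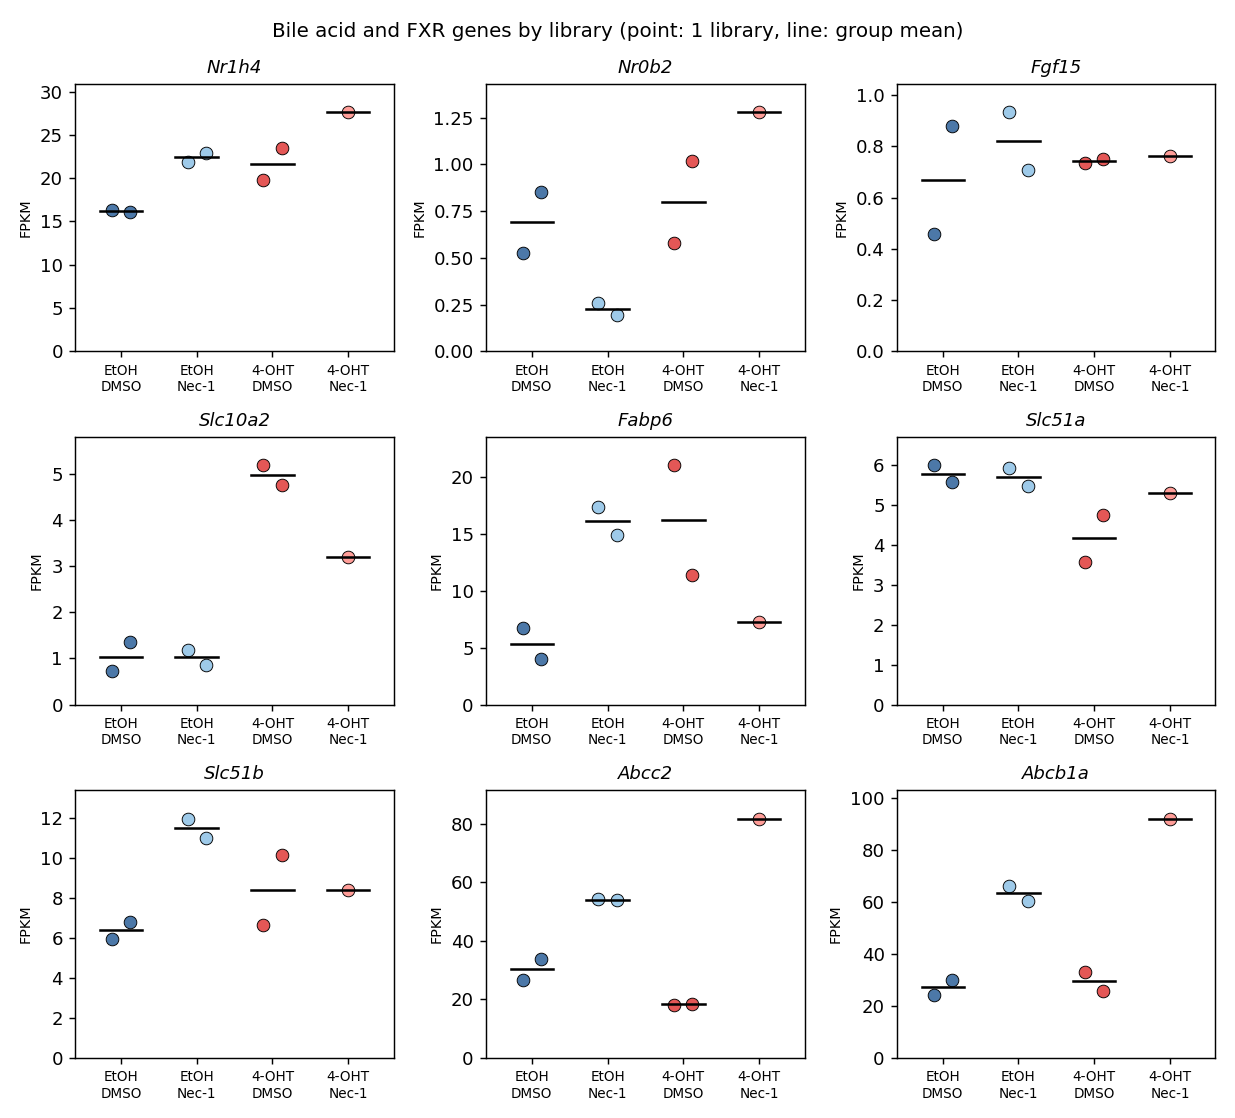
FPKM (vertical axes, linear and starting at 0, with a scale of its own for each gene) of the 9 genes in the 4 groups. Each point is 1 library and each line a group mean. *Slc10a2* is above 3 FPKM only in the 3 libraries labelled 4-OHT, whereas *Abcc2* and *Abcb1a* are highest in the 3 Nec-1 libraries.

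Sequences upstream of the start sites are shown for the 5 members whose log2(FPKM + 1) differed by at least 0.5 in a comparison given below, since FXR and related receptors bind repeats of a 6-base half-site. They are the 250 bases before the start in the RefSeq table of GRCm38.p6, the assembly of the files' mm10 build. The table held 8 of the 9 genes, and *Fgf15* has no entry. Capitals mark matches, searched on both strands, to AGGTCA (the half-site) or AGTTCA (a variant half-site known from pregnane X receptor sites). In *Fabp6* they mark an inverted repeat of the half-site with 1 base between its arms and at most 2 mismatches. Another stretch of that window, aggtgaataacct, meets the same rule and is left in lower case. *Fabp6* lies on the minus strand of chromosome 11 and its window is chr11:43601563-43601812. *Slc10a2* (minus strand) has the window chr8:5105288-5105537, *Slc51b* (minus strand) chr9:65422774-65423023, *Abcc2* (plus strand) chr19:43782058-43782307 and *Abcb1a* (plus strand) chr5:8566841-8567090.
Fabp6: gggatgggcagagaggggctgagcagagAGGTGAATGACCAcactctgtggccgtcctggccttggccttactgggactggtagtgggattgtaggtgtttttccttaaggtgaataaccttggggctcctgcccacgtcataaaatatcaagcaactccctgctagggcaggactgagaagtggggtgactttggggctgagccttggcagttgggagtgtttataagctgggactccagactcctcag
Slc10a2: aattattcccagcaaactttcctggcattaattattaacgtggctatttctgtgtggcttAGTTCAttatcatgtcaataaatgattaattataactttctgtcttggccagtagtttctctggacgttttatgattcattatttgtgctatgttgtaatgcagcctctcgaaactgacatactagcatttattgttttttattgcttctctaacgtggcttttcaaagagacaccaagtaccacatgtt
Slc51b: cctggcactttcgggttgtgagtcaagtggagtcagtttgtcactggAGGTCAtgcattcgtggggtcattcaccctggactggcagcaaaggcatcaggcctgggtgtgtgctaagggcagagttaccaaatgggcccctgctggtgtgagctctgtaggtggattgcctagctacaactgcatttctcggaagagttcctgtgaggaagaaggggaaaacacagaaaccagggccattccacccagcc
Abcc2: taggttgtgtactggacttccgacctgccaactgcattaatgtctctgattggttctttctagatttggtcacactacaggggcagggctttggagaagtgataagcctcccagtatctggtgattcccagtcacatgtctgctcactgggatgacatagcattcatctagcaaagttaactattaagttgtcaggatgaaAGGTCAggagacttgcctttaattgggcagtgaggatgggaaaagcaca
Abcb1a: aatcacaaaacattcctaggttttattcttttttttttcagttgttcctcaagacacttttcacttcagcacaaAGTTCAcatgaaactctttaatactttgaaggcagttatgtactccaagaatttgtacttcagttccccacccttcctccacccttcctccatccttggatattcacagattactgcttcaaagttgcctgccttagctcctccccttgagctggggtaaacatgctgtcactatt

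The marked inverted repeat of *Fabp6* begins at position -222, counted back from the start, and has 2 mismatches. The unmarked one, aggtgaataacct, lies nearer to the start and also has 2. Of 27025 mouse promoter windows of the same length, 0.992% hold such a repeat, and none of the other 7 members with an entry does. The half-site AGGTCA is found in 13.8% of all windows and in *Slc51b* (-203 to -198), *Abcc2* (-49 to -44) and, on the other strand, *Nr1h4* and *Slc51a*. The *Nr1h4* window (chr10:89506659-89506908) lies inside the annotated gene (89454234 to 89533645), so it is not upstream of the whole gene. AGTTCA is found in 11.9% of all windows and in *Slc10a2* (-190 to -185) and *Abcb1a* (-176 to -171). A core of GCGTG, to which the aryl hydrocarbon receptor binds, is in 28.2% of windows and among the members in *Nr0b2*. These matches describe letters in short windows and do not show binding.

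The first comparison, 4-OHT DMSO against EtOH DMSO, asks how the genes differ once Cre has been induced. By the labels, 3 of the 8 tested genes rose (*Slc10a2*, *Fabp6* and *Nr1h4*) and 1 fell (*Abcc2*). The test was limma with a mean-variance trend on log2(FPKM + 1), with Benjamini-Hochberg adjustment over 12702 genes and a threshold of 0.05. In this comparison 41.2% of all tested genes passed, so 4 of 8 is near the background. With median centring or upper quartile scaling 2 rose and 2 fell, *Nr1h4* no longer passing and *Slc51a* passing as lower. The median log2 change was 0.22 for the 8 genes and 0.08 for all tested genes.

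The uptake transporter *Slc10a2* (ENSMUSG00000023073) was at 0.737 and 1.35 FPKM in EtOH DMSO and at 5.18 and 4.75 in the libraries labelled 4-OHT DMSO, a ratio of means of 4.77. Its log2 change was 1.56 (SE 0.18, limma adjusted p = 0.00253). It was 1.19 and 0.861 FPKM in EtOH Nec-1 and 3.19 in the library labelled 4-OHT Nec-1, so all 3 libraries labelled 4-OHT lay above all 4 labelled EtOH. It passed the threshold in all 15 alternative fits that gave it a value, with log2 changes between 1.35 and 2.20.

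The cytosolic carrier *Fabp6* (ENSMUSG00000020405) was at 6.72 and 3.98 FPKM in EtOH DMSO and at 21.0 and 11.4 in the libraries labelled 4-OHT DMSO. The groups did not overlap, although the replicates of each were far apart, and the log2 change was 1.41 (SE 0.33, limma adjusted p = 0.0215). Without the second EtOH DMSO library it was 1.09 and no longer passed (limma adjusted p = 0.10). Over 16 alternatives the adjusted p ran from 0.00687 to 0.10, and 14 passed.

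The receptor *Nr1h4* (ENSMUSG00000047638) went from 16.3 and 16.1 FPKM to 19.8 and 23.5 in the libraries labelled 4-OHT DMSO. This log2 change of 0.39 (SE 0.10, limma adjusted p = 0.0296) passed in 7 of 16 alternatives, over which the adjusted p ran from 0.0147 to 0.121. With each library centred on its median, which moves the median change of all genes by -0.16, it was 0.23 (limma adjusted p = 0.121). The call was also lost without either EtOH DMSO library (0.40 without the first and 0.38 without the second), either EtOH Nec-1 library (0.39) or the second library labelled 4-OHT DMSO (0.28).

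*Abcc2* (ENSMUSG00000025194), the conjugate pump, was the member that fell. It was at 26.6 and 33.8 FPKM in EtOH DMSO and at 18.1 and 18.5 in the libraries labelled 4-OHT DMSO, with a log2 change of -0.68 (SE 0.12, limma adjusted p = 0.00918). It passed in all 16 alternatives, between -0.85 and -0.52. The other apical pump, *Abcb1a* (ENSMUSG00000040584), was at 24.2 and 30.0 FPKM against 33.1 and 25.6, overlapping groups with a log2 change of 0.11 (SE 0.16, limma adjusted p = 0.621). That sign flips to -0.05 with median centring.

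The subunits of the basolateral exporter did not pass. *Slc51a* (ENSMUSG00000035699) was at 5.99 and 5.58 FPKM in EtOH DMSO and at 3.58 and 4.75 in the libraries labelled 4-OHT DMSO (log2 change -0.40, SE 0.13, limma adjusted p = 0.0623). It passed with median centring (-0.56) and without the second library labelled 4-OHT DMSO (-0.57, limma adjusted p = 0.0250), within a range of 0.0236 to 0.197 over its alternatives. *Slc51b* (ENSMUSG00000053862) was at 5.93 and 6.79 FPKM against 6.63 and 10.1 (log2 change 0.33, SE 0.19, limma adjusted p = 0.222). Without the first library labelled 4-OHT DMSO it was 0.60 and passed (limma adjusted p = 0.0224, in a range of 0.0224 to 0.766). The FXR target *Nr0b2* (ENSMUSG00000037583), a corepressor without a DNA-binding domain, was at 0.527 and 0.853 FPKM against 0.580 and 1.02 (log2 change 0.09, SE 0.18, limma adjusted p = 0.736), and its sign flips to -0.07 with median centring. *Fgf15* (ENSMUSG00000031073) was at 0.459 and 0.879 FPKM against 0.735 and 0.7503.

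Markers of intestinal cell types also differed in this comparison. Enterocytes express these transporters, and the summed level of 12 enterocyte markers was 2740 to 2953 FPKM in EtOH DMSO and 1507 to 1576 in the libraries labelled 4-OHT DMSO. Of the 11 markers tested, 4 rose and 5 fell, where 41.2% of all tested genes passed in this comparison. Paneth cell markers summed to between 7400 and 8170 FPKM against 19155 to 19689, and 6 of 7 rose. Goblet markers rose in 6 of 7 cases (4 with either scaling) and enteroendocrine markers in 8 of 8, whereas 3 of 8 stem cell markers fell. Of 2 tested immune markers *Cd68* rose, at 0.774 and 2.01 FPKM against 5.69 and 7.72, and *Itgam* was at 1.96 and 1.19 against 0.315 and 0.917, called lower with median centring. The immune list summed to 2.81 to 3.31 FPKM against 6.52 to 8.72, and fibroblast markers to 0.831 to 1.07 against 0.683 to 1.11. Of the 7 tested markers of proximal intestine none rose and 4 fell (6 with either scaling), and of the 3 distal ones 1 rose and 1 fell. The part of cell composition in the members' changes was not tested, and in bulk organoids fewer cells of a type and less RNA per cell cannot be told apart.

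**Figure D2:**
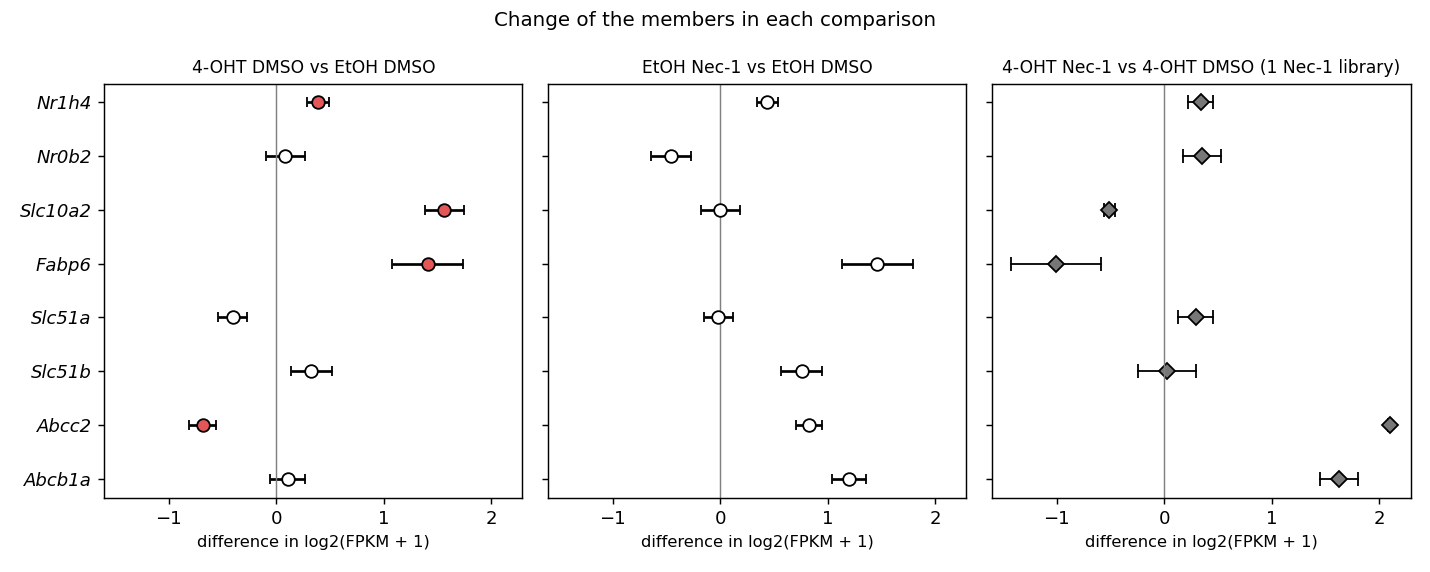
Difference in log2(FPKM + 1) (horizontal axes) of the 8 tested genes in 3 comparisons. Circles with bars are limma estimates with their SE, filled red where the adjusted p is under 0.05, and diamonds are the differences of the single 4-OHT Nec-1 library from the average of both 4-OHT DMSO libraries, with bars to the difference from each. *Slc10a2* and *Fabp6* lie above 1 in the left panel, and *Abcc2* and *Abcb1a* above 1 in the right one.

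Nec-1 was also given to control organoids, and this comparison (EtOH Nec-1 against EtOH DMSO) asks how the genes differ with the inhibitor when Cre is not induced. *Abcb1a*, *Abcc2*, *Fabp6*, *Slc51b* and *Nr1h4* were each higher in both Nec-1 libraries than in both DMSO libraries. This was so for 5 of the 8 tested genes, against 10.5% of all tested genes. Because the members were chosen with earlier results known, this share and those that follow do not test for enrichment. After adjustment over all genes, however, 0 of 8 passed in limma, where 0.22% of all genes did. Unadjusted p-values under 0.05 were reached by the same 5 genes, against 13.3% of all genes. The median log2 change of the 8 was 0.60, and that of all tested genes -0.09.

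*Abcb1a* was at 24.2 and 30.0 FPKM with DMSO and at 66.1 and 60.3 with Nec-1, a ratio of means of 2.33. The log2 change was 1.199 (SE 0.16) with a limma adjusted p of 0.0962. It passed in 3 of 16 alternatives, namely with only the 4 libraries of the comparison (limma adjusted p = 0.0365) and without the first (0.0380) or the second (0.0382) library labelled 4-OHT DMSO, and over all 16 the adjusted p reached 0.538. Its paralog *Abcb1b*, of nearly the same sequence, was at no more than 1.00 FPKM in any library, and how shared reads were divided is not given in the sources used here. *Abcc2* was at 26.6 and 33.8 FPKM with DMSO and at 54.1 and 54.0 with Nec-1 (log2 change 0.83, SE 0.12, limma adjusted p = 0.118).

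Among the bile acid genes proper, *Fabp6* was at 6.72 and 3.98 FPKM with DMSO and at 17.4 and 14.9 with Nec-1. That is a ratio of means of 3.02, as in the libraries labelled 4-OHT DMSO, but the log2 change of 1.46 (SE 0.33) did not pass here (limma adjusted p = 0.217). Both comparisons use the same EtOH DMSO libraries. *Slc51b* was at 5.93 and 6.79 FPKM with DMSO and at 11.9 and 10.99 with Nec-1 (log2 change 0.76, SE 0.19, limma adjusted p = 0.254), and *Nr1h4* at 16.3 and 16.1 against 21.9 and 22.9 (log2 change 0.44, SE 0.10, limma adjusted p = 0.226).

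The remaining members did not go the same way. *Nr0b2* was at 0.527 and 0.853 FPKM with DMSO and at 0.258 and 0.196 with Nec-1 (log2 change -0.46, SE 0.18, limma adjusted p = 0.378), values under 1 FPKM at which the pseudocount makes changes smaller. *Slc51a* overlapped between the groups (5.99 and 5.58 against 5.92 and 5.47 FPKM), as did *Slc10a2* (0.737 and 1.35 against 1.19 and 0.861) and *Fgf15* (0.459 and 0.879 against 0.933 and 0.710). Paneth markers summed to between 8685 and 8876 FPKM and enterocyte markers to between 2270 and 2466 in EtOH Nec-1. Stem cell markers summed to 69.2 and 69.4 FPKM there, against 94.1 and 94.2 in EtOH DMSO, and the part of all these markers in the changes was not tested.

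In organoids labelled 4-OHT, Nec-1 is represented by 1 library, so its comparison with the libraries labelled 4-OHT DMSO has no replicate check. *Abcc2* and *Abcb1a* were the members that exceeded both DMSO libraries by 1 log2 unit or more. Of the 7 members that averaged 1 FPKM or more across these libraries, 2 were this far above, as were 0.764% of 12036 genes. *Abcc2* was at 81.7 FPKM with Nec-1 and at 18.1 and 18.5 without it, a ratio of 4.46 and a log2 difference of 2.099, and *Abcb1a* at 33.1 and 25.6 against 92.0 (ratio 3.13, log2 difference 1.63). In both cases the lone library was the highest of all 7.

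With the lone library assumed to vary like the others, limma gave *Abcc2* an adjusted p of 0.00879 and *Abcb1a* one of 0.0262, and these were the 2 of 8 tested members that passed, against 1.84% of all genes. *Fabp6* was at 21.0 and 11.4 FPKM in 4-OHT DMSO and at 7.21 with Nec-1, below both, with a log2 difference of -1.006 (-1.42 against the first DMSO library and -0.59 against the second). *Slc10a2* was lower as well, at 3.19 FPKM against 5.18 and 4.75 (-0.51). *Nr1h4* was at 27.6 FPKM against 19.8 and 23.5 (0.34), *Slc51a* at 5.29 against 3.58 and 4.75 (0.29), and *Slc51b* at 8.40, between its 2 DMSO values (0.03). Paneth markers summed to 14698 FPKM and enterocyte markers to 1720 in this library, and their part was not tested. *Nr0b2* was at 1.28 FPKM against 0.580 and 1.02, and *Fgf15* at 0.764 against 0.735 and 0.7503.

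The difference between the Nec-1 effects, 4-OHT minus EtOH, was largest in size for *Fabp6* and *Abcc2* among the members with a mean of at least 1 FPKM. For *Fabp6* it was -2.47 log2 units, since Nec-1 went with higher values in EtOH and a lower one in the library labelled 4-OHT. For *Abcc2* it was 1.27, both effects being upward. These 2 of 7 members differed by at least 1 log2 unit, as did 3.93% of 12036 genes, and for *Abcb1a* the difference was 0.43. As an interaction in limma, which again assumes that the lone library varies like the others, 0 of 8 members passed (adjusted p = 0.255 for *Fabp6* and 0.141 for *Abcc2*), against 0.0551% of all genes. Of the 7 members, 2 (*Abcc2* and *Fabp6*) had an unadjusted p under 0.05, against 8.34% of all genes. *Nr0b2* did too but is not counted, because it passed the filter through libraries labelled 4-OHT. Both effects of *Nr1h4* were of like size, with a difference of -0.10 (SE 0.16).

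**Figure D3:**
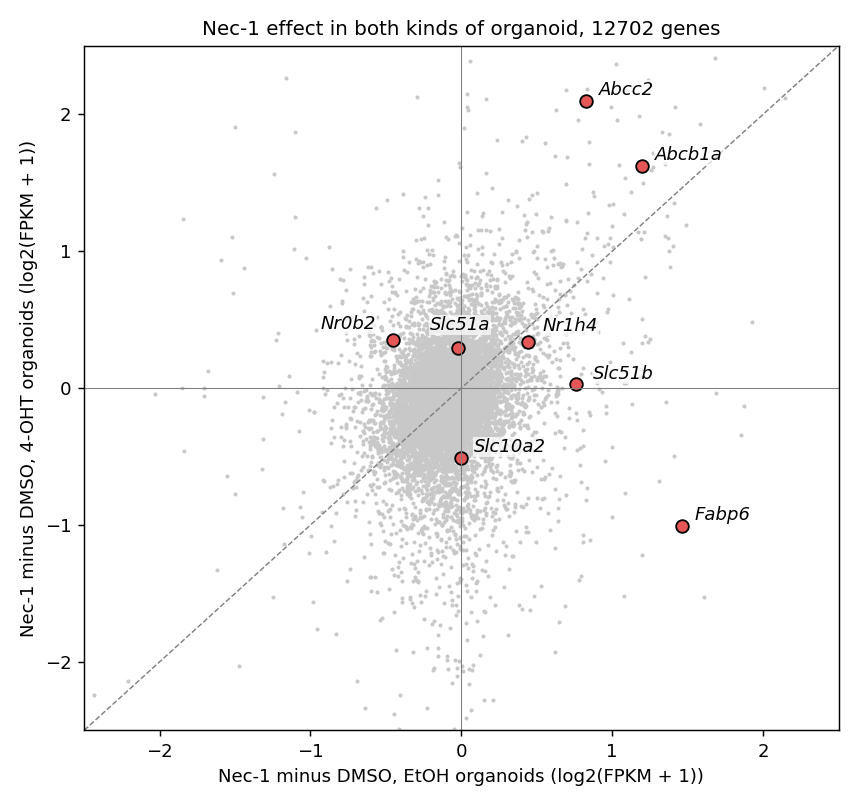
Nec-1 minus DMSO in log2(FPKM + 1) for EtOH organoids (horizontal) and organoids labelled 4-OHT (vertical, 1 Nec-1 library). Grey points are the 12702 tested genes, of which 45 lie outside the axes, red points the 8 tested members, and the dashed line marks equal effects. *Abcc2* and *Abcb1a* lie in the upper right and *Fabp6* in the lower right.

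The balance between the genes for the 2 subunits of OSTα-OSTβ was also read within each library. In the EtOH DMSO libraries the ratio of *Slc51b* to *Slc51a* FPKM was 0.991 and 1.22. It was 2.02 and 2.01 in EtOH Nec-1, 1.85 and 2.13 in the libraries labelled 4-OHT DMSO and 1.59 in the one labelled 4-OHT Nec-1. Only the EtOH DMSO libraries had a ratio below 1.5 among these 7. In EtOH Nec-1 the *Slc51b* values were above those of EtOH DMSO and the *Slc51a* values overlapped, whereas in 4-OHT DMSO both *Slc51a* values were below those of EtOH DMSO and *Slc51b* overlapped. Neither gene passed in these comparisons, and the ratio is a description that was not tested.

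**Figure D4:**
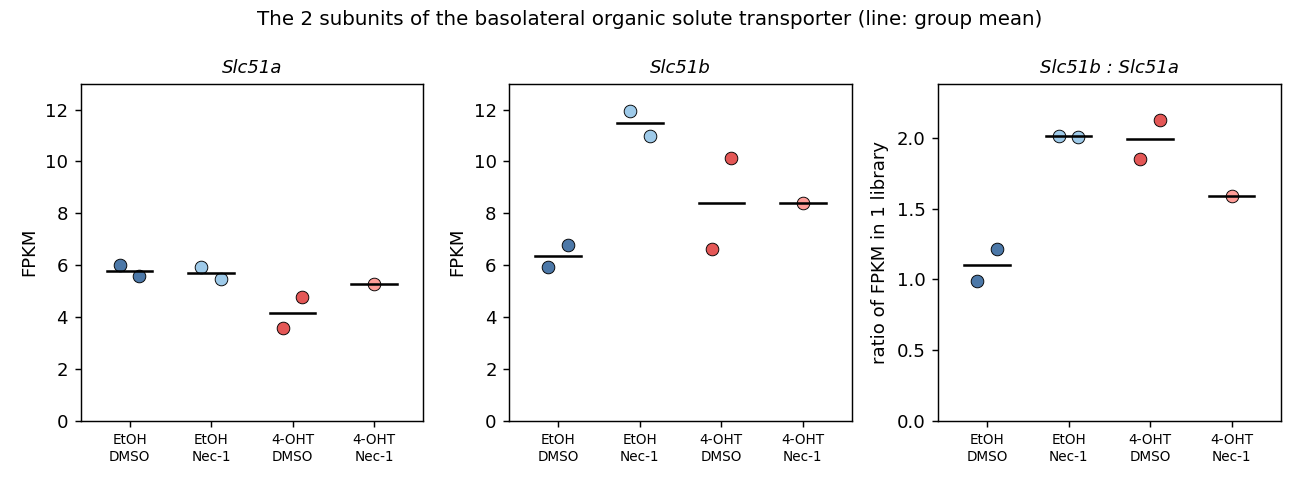
FPKM of *Slc51a* and *Slc51b* and their ratio within each library (vertical axes, from 0) in the 4 groups. Points are libraries and lines group means. The ratio is 0.991 and 1.22 in EtOH DMSO and at least 1.59 elsewhere.

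Further genes of bile acid handling were read from a list of 18, of which 7 were tested. In the 4-OHT DMSO comparison, where 41.2% of all tested genes passed, 1 rose and 4 fell, with a median log2 change of -0.40. The organic anion uptake transporter *Slco2b1* fell from 8.29 and 8.29 FPKM in EtOH DMSO to 1.37 and 1.53 in the libraries labelled 4-OHT DMSO (log2 change -1.92, SE 0.09, limma adjusted p = 0.000354). *Fgfr4*, which encodes the receptor for FGF15, fell from 2.99 and 3.42 FPKM to 1.51 and 1.05 (-0.89, SE 0.15, limma adjusted p = 0.00752), while its coreceptor *Klb* was at no more than 0.155 FPKM in any library. The basolateral pump *Abcc4* (MRP4) rose from 1.05 and 1.05 FPKM to 3.74 and 2.58 (1.007, SE 0.16, limma adjusted p = 0.00641). Of the listed enzymes of bile acid synthesis, *Cyp7a1*, *Cyp7b1* and *Cyp8b1* were at no more than 0.0525 FPKM in any library. The same held for the hepatic export pump *Abcb11* and the membrane bile acid receptor *Gpbar1*. Several of these are known as genes of the liver. *Cyp27a1*, another listed enzyme of that synthesis, was present in every library, at 1.98 to 3.27 FPKM. Of 6 hepatocyte markers, *Alb* was at 6.06 to 10.8 FPKM and *Ttr* at 5.92 to 10.3 over the libraries. The others reached no more than 0.872 FPKM.

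Among 7 other ABC efflux pumps, 5 were tested. In the 4-OHT DMSO comparison, where 41.2% of all tested genes passed, 1 rose (*Abcc4*) and 1 fell. The latter was *Abcg2*, the apical pump BCRP, at 9.81 and 9.25 FPKM in EtOH DMSO and 6.71 and 7.25 in the libraries labelled 4-OHT DMSO (log2 change -0.40, SE 0.09, limma adjusted p = 0.0173). *Abcc3*, a basolateral relative of *Abcc2*, was read in the same libraries but is not a steady reference. It was at 39.4 and 49.6 FPKM (DMSO) and 51.9 and 51.7 (Nec-1) in EtOH organoids. Under the 4-OHT label it was at 38.6 and 42.0 (DMSO) and 57.3 (Nec-1), so the ratio combines differences of both genes. The ratio of *Abcc2* to *Abcc3* FPKM was 0.676 and 0.681 (DMSO) and 1.04 and 1.04 (Nec-1) in EtOH organoids, and 0.468 and 0.441 (DMSO) and 1.42 (Nec-1) under the 4-OHT label.

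Of 8 other known FXR targets 7 were tested. In the 4-OHT DMSO comparison 2 rose and 1 fell, near the share of all tested genes that passed (41.2%). *Nos2*, the inducible nitric oxide synthase, rose from 0.936 and 1.95 FPKM to 10.6 and 6.72 (log2 change 1.98, SE 0.27, limma adjusted p = 0.00405). *Sdc1*, a cell surface proteoglycan, rose from 94.2 and 98.2 FPKM to 124 and 134 (0.42, SE 0.08, limma adjusted p = 0.0109). The cytokine gene *Il18* fell from 23.6 and 24.8 FPKM to 9.66 and 11.9 (-1.11, SE 0.14, limma adjusted p = 0.00296).

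All 22 genes of a list of FXR partners and intestinal regulators were tested. In the 4-OHT DMSO comparison 1 rose and 7 fell, a smaller share than the 41.2% of all tested genes that passed. With median centring or upper quartile scaling 0 rose and 12 fell. Over all genes 5400 and 5208 were called with these scalings, against 5237 in the main fit. The constitutive androstane receptor *Nr1i3* fell from 21.3 and 23.1 FPKM to 3.26 and 3.59 (log2 change -2.39, SE 0.09, limma adjusted p = 0.000256). The vitamin D receptor *Vdr*, which also binds a secondary bile acid, fell from 31.0 and 35.5 FPKM to 17.2 and 18.2 (-0.87, SE 0.10, limma adjusted p = 0.00215). The glucocorticoid receptor *Nr3c1* fell from 9.72 and 14.2 FPKM to 5.62 and 6.64 (-0.84, SE 0.18, limma adjusted p = 0.0163). In EtOH Nec-1 against EtOH DMSO, 0 of the 38 tested genes of these 4 lists passed in limma, against 0.22% of all tested genes. An unadjusted p under 0.05 was reached by 11 of the 38, against 13.3% of all tested genes.

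**Figure D5:**
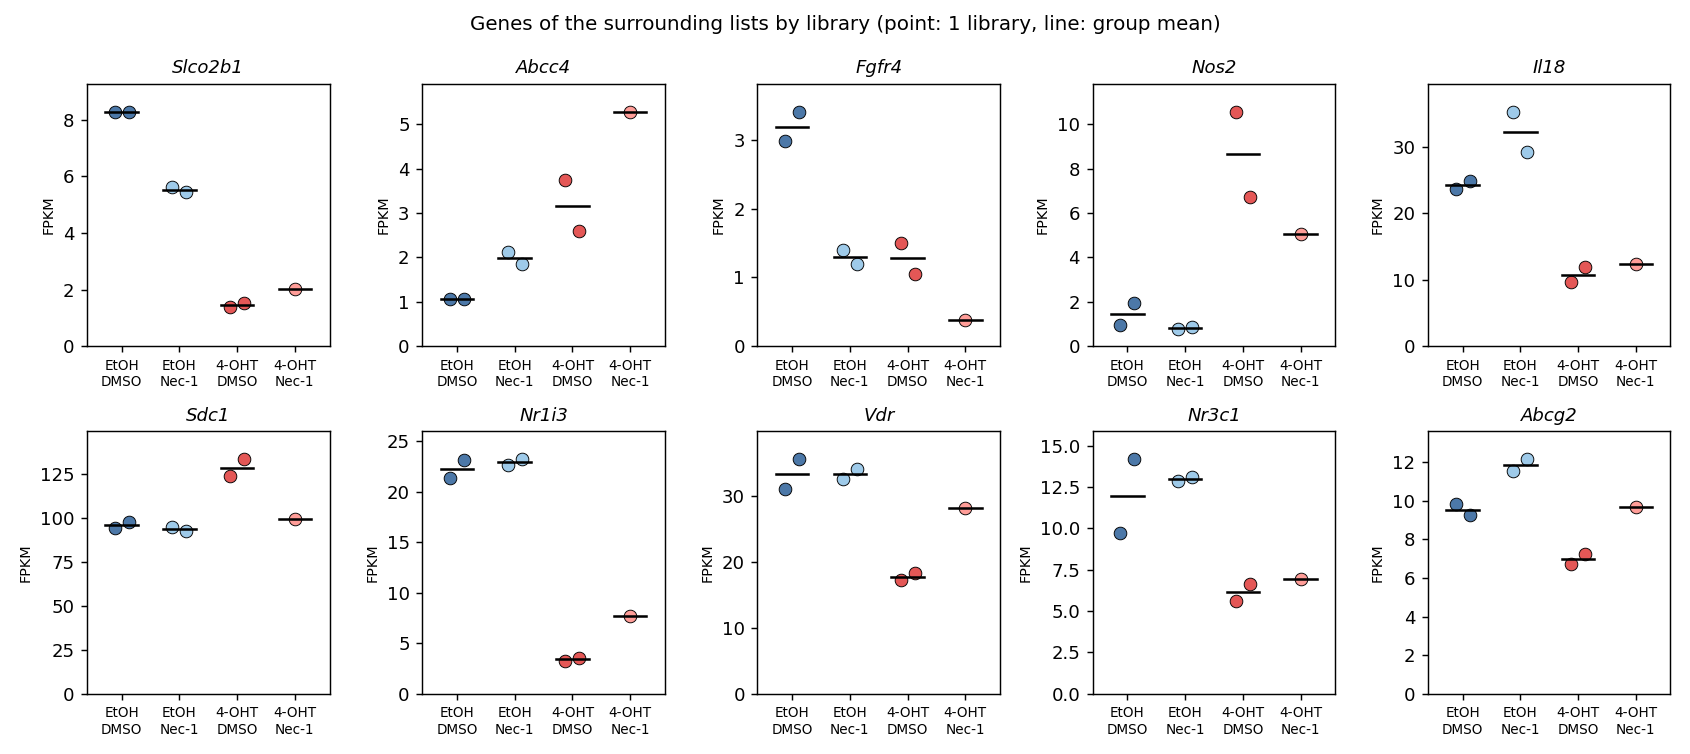
FPKM (vertical axes, from 0, with a scale of its own for each gene) of 10 genes from the lists around the members. Points are libraries and lines group means. *Slco2b1* and *Nr1i3* are lower in the 3 libraries labelled 4-OHT than in the 4 labelled EtOH, and *Abcc4* and *Nos2* are higher in them.

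Genes with the most similar pattern were sought by Pearson's r of log2(FPKM + 1) over the 7 libraries, among the 12694 tested genes that are no members. For *Nr1h4* they were *Sppl2a*, an intramembrane protease (r = 0.986), *Hsd17b2*, a steroid dehydrogenase (r = 0.964), and *Gipc2*, a scaffold protein (r = 0.959). *Hsd17b2*, for example, was at 13.7 and 12.01 FPKM in EtOH DMSO libraries, at 26.2 and 26.1 with EtOH Nec-1, and stood at 24.0 and 25.4 (DMSO) and 52.4 (Nec-1) under the 4-OHT label. For *Slc10a2* they were *Upk1b*, a uroplakin (r = 0.999), the stress-response transcription factor *Atf3* (r = 0.997) and the deubiquitinase gene *Otud7b* (r = 0.997). *Atf3* was at 5.75 and 6.63 FPKM (DMSO) and 6.83 and 6.00 (Nec-1) in EtOH organoids, and at 11.4 and 10.8 (DMSO) and 9.001 (Nec-1) under the 4-OHT label. These r are the highest of many over 7 libraries in 4 groups, so they describe shared differences between groups.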

How the data were processed

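Small intestinal organoids were profiled by RNA-seq in 7 libraries. The deposited values are FPKM per Ensembl gene, and the submitters' processing notes name HISAT2 2.1.0, StringTie 1.3.3b and mm10, without their role. Of 54838 identifiers, 54723 matched a symbol. FPKM are scaled by the authors to transcript length and mapped fragments, so a gene's value depends on the rest of its library. The 2 CUT&Tag samples of the series were not analysed here.

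Tests used limma 3.58.1 in R 4.3.3 on log2(FPKM + 1) with a trend, over 12702 genes, with 1 mean per group in 7 libraries and 3 residual degrees of freedom. The pseudocount of 1 understates changes of low genes. The model was also run on simulated log2 values, with independent noise of the fitted spread and changes in the 4-OHT DMSO group only. Far fewer genes were changed there than were called here, and comparisons with the lone library were not simulated. The run therefore does not show how the model performs on these data. Same-numbered replicates did not deviate together (r from -0.04 to 0.01), so no block was used. The 4-OHT Nec-1 library was compared by fold, and by limma as an alternative that takes the spread from the other groups. Named are the members, *Mettl3*, up to 3 genes per list and comparison with the largest called change, genes at or near 0, and genes of similar pattern. Reference genes and markers outside this rule (*Abcc3*, *Abcb1b* and the cell type and region markers) were added after their values were seen. Members and lists were chosen with earlier results of these data known. Alternatives were other scalings, filters, pseudocounts, a replicate block and each library left out.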

Additional observations from a re-analysis of the deposited data

Results flagged for a closer look

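The Nec-1 effect on *Fabp6* went in opposite directions in the organoids labelled EtOH and 4-OHT. Both EtOH Nec-1 libraries (17.4 and 14.9 FPKM) lay above both EtOH DMSO libraries (6.72 and 3.98), while the library labelled 4-OHT Nec-1 (7.21) lay below both labelled 4-OHT DMSO (21.0 and 11.4). The difference of the effects was -2.47 log2 units. As a limma interaction with Benjamini-Hochberg adjustment over all genes it did not pass (adjusted p = 0.255).

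*Nr0b2* went the other way round. Its EtOH Nec-1 libraries (0.258 and 0.196 FPKM) lay below the EtOH DMSO ones (0.527 and 0.853), and the library labelled 4-OHT Nec-1 (1.28) lay above those labelled 4-OHT DMSO (0.580 and 1.02). The difference was 0.81 log2 units, and the limma interaction did not pass (adjusted p = 0.548). Every *Nr0b2* value but 2 was under 1 FPKM, and both differences rest on 1 library labelled 4-OHT Nec-1.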

How the results depend on the processing

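Of 371 comparisons of a member's value with an alternative, 324 kept their direction and call or moved by less than the replicate spread. Many alternatives, such as no trend, other filters or a replicate block, left the log2 change as it was and could alter only the call. A member not called in the main fit also counts as kept while it stays uncalled with the same sign. The count therefore overstates how far the values were put to the test. *Slc10a2* and *Abcc2* passed in every fit of 4-OHT DMSO against EtOH DMSO that gave them a value. The members called there numbered 4, and 2 without a filter on low values, where *Fabp6* and *Nr1h4* were lost with more genes tested. Leaving out each library gave 2 to 5 members, the lowest without the second EtOH DMSO library, and 3628 to 5232 genes against 5237. For EtOH Nec-1 against EtOH DMSO, 0 members passed, 1 (*Abcb1a*) did with only the 4 libraries of the comparison, and 0 to 1 with each library left out. The genes called over the whole table moved from 28 to 43 with upper quartile scaling, 8 without a filter and 79 with only those 4 libraries, and leaving out each library gave 9 to 75. They were 75 without either library labelled 4-OHT DMSO, 13 and 14 without the first and second EtOH DMSO library, and 11 and 9 without the first and second EtOH Nec-1 library. The cause was not tested.

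Signs that turned belonged to small changes. In 4-OHT DMSO against EtOH DMSO, *Nr0b2* was -0.0714 and *Abcb1a* -0.0485 with median centring, *Abcb1a* was -0.0517 with upper quartile scaling, and with each library left out they ran from -0.0907 to 0.262 and from -0.0688 to 0.286. In EtOH Nec-1 against EtOH DMSO, *Slc51a* was 0.0799 with median centring and 0.0733 with upper quartile scaling. With each library left out it ran from -0.0682 to 0.0299, and *Slc10a2* from -0.217 to 0.218.

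For 4-OHT Nec-1 against 4-OHT DMSO, 2 members were past the fold in every alternative except without the second library labelled 4-OHT DMSO, where *Fabp6* made 3. Over all genes the 238 past the fold became 378 with a pseudocount of 0.1, and 421 to 772 with 1 DMSO library left out, the most without the first. The 2 members whose Nec-1 effects differed by at least 1 log2 unit became 0 when the limma interaction was the rule. Upper quartile scaling of this comparison was chosen after the data were seen. With the replicate number as a block, 4 members passed in 4-OHT DMSO against EtOH DMSO and 0 in EtOH Nec-1 against EtOH DMSO, with 4697 and 19 genes called. Depth is unknown, so values under 1 FPKM carry an unknown counting error.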
